A study of Mus musculus with 21 samples.

Results

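Gzmd-positive cells were the cells of 1 day 10 culture, grown in 50 IU/mL of the IL-2 variant IL-2v, that held at least 2 unique molecular identifiers (UMIs, 1 per captured transcript) of Gzmd, the gene for granzyme D. They numbered 423 of the 5090 cells kept in that library, or 8.31% (exact Clopper-Pearson 95% interval 7.57 to 9.10). The cells were chosen by their Gzmd count, so its values are given as a description and it was left out of every comparison. Each Gzmd-positive cell was paired with 1 cell of the same library that had 0 Gzmd UMIs and a UMI total within 5%, and all 423 found a partner. The partners are called paired Gzmd-negative cells.

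The series holds 21 single-cell RNA libraries of mouse OT-1 CD8 T cells, which carry a transgenic T cell receptor for an ovalbumin peptide. The labels give naive cells before activation on day 0, and cells activated with beads coated with antibodies to CD3 and CD28 and then kept in IL-2, IL-2v or IL-15 at 5 or 50 IU/mL and taken on days 3, 5 and 10, or kept without cytokine and taken on days 3 and 5. The treatment label of the library used here reads mutant IL-2bg at 50 IU/mL. The main companion is the day 10 library from 50 IU/mL IL-2, whose treatment label names another interleukin than its title. The same holds for 6 libraries in all, those from 50 IU/mL IL-2 and 50 IU/mL IL-15 on days 3, 5 and 10, and the titles were followed throughout. Each of the 21 conditions had 1 library, so no comparison has a replicate check, no p-value is given, and every interval covers counting error only. The labels describe a sort of CD44+ CD45.1+ CD8+ cells from tumours beside the culture protocol, and how these cultured cells were sorted is not given in the sources used here.

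Granzymes are serine proteases that killer T cells store in secretory granules and deliver into target cells through pores made by perforin. In the mouse, granzyme B and a set of closely related granzymes, C, D, E, F, G and N, are encoded side by side on chromosome 14. Granzyme B appears early after T cell activation, whereas several of the neighbouring granzymes are known as late products of T cells held in IL-2. Granzymes C, D, E, F, G and N are together called late granzymes below, a label by position that need not hold for each of them.

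Gzmd lies on the minus strand at chr14:56129556-56132608 (build GRCm38, GENCODE vM21). From Gzme (chr14:56117626-56120625) to Gzmb (chr14:56258838-56262260) the granzyme genes span 145 kb, all on the minus strand. The bases just upstream of the start sites are shown because several late granzymes share them closely, while Gzmn and Gzmb do not. Each line gives the 250 bases before the RefSeq start site (build GRCm38.p6, minus strand, read 5′ to 3′), with capitals at each match to TGTGGT, the core letters bound by RUNX factors, on either strand, and, for Gzmn, at TATAAA.
Gzmd, chr14:56132594-56132843: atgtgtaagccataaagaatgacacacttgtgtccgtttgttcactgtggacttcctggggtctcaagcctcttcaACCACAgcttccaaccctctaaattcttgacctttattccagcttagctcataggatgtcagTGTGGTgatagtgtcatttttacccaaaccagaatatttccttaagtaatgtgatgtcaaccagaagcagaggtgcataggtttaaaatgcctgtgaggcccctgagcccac
Gzme, chr14:56120626-56120875: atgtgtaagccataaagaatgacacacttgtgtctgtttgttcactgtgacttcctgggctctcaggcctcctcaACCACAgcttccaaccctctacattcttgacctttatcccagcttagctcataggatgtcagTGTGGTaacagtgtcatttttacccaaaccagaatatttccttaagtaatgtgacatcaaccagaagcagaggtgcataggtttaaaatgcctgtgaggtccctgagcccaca
Gzmc, chr14:56234658-56234907: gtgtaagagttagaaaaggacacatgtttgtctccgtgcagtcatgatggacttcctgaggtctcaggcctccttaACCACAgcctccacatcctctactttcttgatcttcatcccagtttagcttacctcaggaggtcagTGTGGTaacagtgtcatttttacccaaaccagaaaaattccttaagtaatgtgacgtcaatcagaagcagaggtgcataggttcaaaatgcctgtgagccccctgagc
Gzmn, chr14:56174600-56174849: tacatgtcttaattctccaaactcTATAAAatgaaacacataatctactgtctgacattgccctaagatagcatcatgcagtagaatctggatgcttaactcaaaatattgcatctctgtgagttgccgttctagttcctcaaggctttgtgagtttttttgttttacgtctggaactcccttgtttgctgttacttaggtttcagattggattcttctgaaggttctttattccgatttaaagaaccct
In Gzmd the ACCACA match, which is TGTGGT on the other strand, began 174 bases upstream of the start site and the TGTGGT match 112 bases upstream. The first letters of the 2 matches lay 62 bases apart in Gzmd, Gzme, Gzmf and Gzmg and 66 bases apart in Gzmc. Gzmn had no TGTGGT match in its window. Over RefSeq windows of 250 bases before to 50 after the start, TGTGGT was found in 5 of 6 late granzyme windows and in 16.8% of 32851 mouse windows, and 1.81% of windows held at least 2 matches. Gzmb, which is no late granzyme, held 2 matches as well, 93 and 34 bases upstream, and Prf1 held 1. Searched the same way on both strands, TTCNNNGAA (STAT) was in 0 of 6 late granzyme windows and 8.30% of all, TGANTCA (AP-1) in 0 of 6 and 7.81% of all, and TATAAA in 1 of 6 and 13.6% of all. No other motif was searched, and a match of letters is not a binding site. Over the 300-base windows, Gzmd was 93.4% identical to Gzme, 83.4% to Gzmc, 81.3% to Gzmg, 77.6% to Gzmf, 52.7% to Gzmn and 46.8% to Gzmb.

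The transcripts are alike too, which limits how surely a UMI belongs to 1 gene. The Gzmd transcript was 90.4% identical to that of Gzme, 84.7% to Gzmg and 70.3% to Gzmc. Of the 31-base words in the last 500 bases of Gzmd transcripts, 37.7% also occur in another gene, most of them in Gzme, and the share was 45.5% for Gzme, 31.9% for Gzmg and 21.1% for Gzmf. How the authors' counting treated reads that fit several genes is not given in the sources used here, so the split between Gzmd, Gzme, Gzmg, Gzmf and Gzmn is uncertain. Gzmc shared 4.04% of its words with other genes and is less exposed to this limit.

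Gzmd-positive cells were found in 6 of the 21 libraries. The day 10 library from 50 IU/mL IL-2 held 2291 among 4937 cells (46.4%), and that from 5 IU/mL IL-2 held 24 among 6382 (0.376%). On day 5 there were 7 in 50 IU/mL IL-2 and 3 in 50 IU/mL IL-2v, and on day 3 there were 2 in 50 IU/mL IL-2. The day 10 library from 5 IU/mL IL-2v had 4 Gzmd UMIs, each in a different cell. Gzmd was at 0 UMIs in 14 libraries, among them both IL-15 libraries of day 10 and the naive cells, where 0 of 4777 cells at a median of 3799 UMIs allows, by a floor of 3 cells, a share of up to 0.0628%. With every cell thinned to 2000 UMIs the share was 6.24% in 50 IU/mL IL-2v and 40.9% in 50 IU/mL IL-2 on day 10, so the order of these libraries was the same at equal depth.

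**Figure D1:**
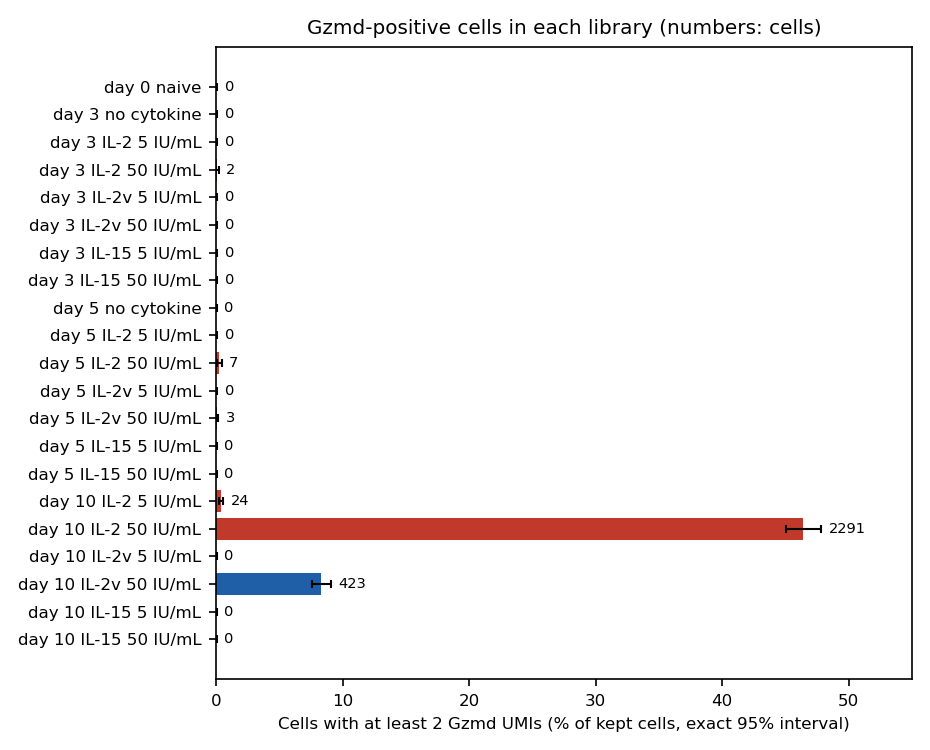
Share of kept cells with at least 2 Gzmd UMIs in each of the 21 libraries (bars, in percent, with exact 95% intervals for counting error), and the number of such cells beside each bar. The day 10 libraries from 50 IU/mL IL-2 (2291 cells) and 50 IU/mL IL-2v (423 cells) hold nearly all of them.

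Library depth and quality were close in the arms compared. Libraries of the series kept 3250 to 7105 cells at a median of 3016 to 5065 UMIs per cell. Gzmd-positive cells had a median of 7069 UMIs, against 4756 in all 4501 Gzmd-negative cells of the library and 7056 in the paired ones. Median mitochondrial UMIs were 4.96% in Gzmd-positive and 4.44% in paired negative cells, ribosomal protein UMIs 35.9% in both, and genes per cell 1959 and 2070. The arms summed to 3065909 and 3060409 UMIs. No doublet caller was run. Of the 423 Gzmd-positive cells 67 exceeded 2 times the library's median UMIs, against 189 of all 4501 Gzmd-negative cells. The 65 such paired negative cells follow from the matching on UMIs and say nothing about doublets. Of the Gzmd-positive cells 10 (2.36%) carried a barcode also present in another library, against 136 of the other 4667 cells (2.91%), and none of the 10 was shared with the day 10 library from 50 IU/mL IL-2.

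The cells carried the defining transcripts of CD8 T cells. Cd3d, a chain of the T cell receptor complex, was detected in 100% of Gzmd-positive cells, Cd3g in 98.3%, and Cd8b1, the CD8 beta chain, in 68.1% against 79.7% of paired negative cells, with 26.0% of its words shared with other genes (31-base words, as above). Of the 8 T cell markers compared, Cd2 (-0.77) was called lower and none higher, with a median of -0.33. Cd8a was detected in 56.0% against 64.1% of cells. Cd4, Cd40lg, Foxp3, Cd79a, Ms4a1, Igkc, Lyz2, Csf1r, Adgre1, Ncr1, Klra8 and Klra4, which mark helper T, B, myeloid and natural killer cells, were at 0 UMIs in both arms. Other members of these lists were not: Ighm, an immunoglobulin heavy chain gene on the B cell list, had 107 UMIs in Gzmd-positive and 276 in paired negative cells (18.0% and 39.5% of cells), Cd79b had 2 and 8, Cd14 had 3 and 0, and Itgam had 3 and 2. Their part in the results was not tested. Of the 3 genes of the mast cell list present in the table, Mcpt8, which need not be particular to mast cells, had 34 UMIs in Gzmd-positive and 0 in paired negative cells. The 3 summed to 15.7 and 1.96 CPM, counts per 1000000 UMIs of the arm. Fcer1g accounted for nearly all of the summed myeloid list, 221 against 34.3 CPM, while Tyrobp had 13 against 3 UMIs. Klrb1c, a natural killer marker also found on killer T cells, was at 85.8 against 31.04 CPM, and Eomes at 145 against 159 CPM.

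Among themselves the Gzmd-positive cells spread widely. The median was 12 Gzmd UMIs (quartiles 5 and 34.5, highest 218). Just inside the limit 48 cells had 2 UMIs and just outside it 166 cells had 1, while 251 cells had 10 or more. Gzmc, at a median of 18 UMIs per cell and a highest of 288, was spread in a like way, with 40.2% of its UMIs in the 43 richest cells. Gzmf was not: 356 of the 423 cells had none, and 43 cells held 98.4% of its UMIs. The 43 richest cells held 66.4% of the Gzmg UMIs and 43.5% of the Gzme UMIs.

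Gzmd-positive cells carried several late granzymes at once. Values below are CPM from UMIs summed over each arm, Gzmd excluded, and differences are in log2(CPM + 1), with the range that the 2 exact Poisson intervals leave. Gzmg, granzyme G, stood at 2906 CPM in Gzmd-positive and 11.4 CPM in paired negative cells, a difference of 7.87 (7.40 to 8.37). Gzme, granzyme E, was at 1685 against 11.8 CPM, a difference of 7.05 (6.57 to 7.55). Gzmf was at 499 against 22.9 CPM, a difference of 4.39 (3.99 to 4.80). Gzmc, granzyme C, was at 4258 against 519 CPM, the smallest difference of the 4 at 3.04 (2.94 to 3.13). For each of the 4 genes the counting intervals of the arms were apart, and Gzmc was the one with a clear level in the negative cells. Against all Gzmd-negative cells without matching, the differences were larger for Gzme (7.78), Gzmf (5.54) and Gzmc (3.77), and Gzmf differed by 5.29 when at least 5 Gzmd UMIs were required. Gzmn had 13 UMIs in Gzmd-positive and 0 in paired negative cells, at least 4.33-fold higher against a floor of 3 UMIs over the arm.

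Seen cell by cell, Gzme was detected in 86.8% of Gzmd-positive and 3.07% of paired negative cells, and Gzmg in 64.8% and 2.36%. Gzmc was detected in 84.6% of Gzmd-positive cells and, unlike these, in 34.3% of the paired negative cells. Of the 423 Gzmd-positive cells 9 had none of Gzmc, Gzme, Gzmf and Gzmg, 51 had 1, 125 had 2, 187 had 3 and 51 had all 4, whereas 270 of the paired negative cells had none. Read the other way, 316 of the 355 cells of the library with at least 2 Gzme UMIs were Gzmd-positive (89.0%), as were 238 of 273 with at least 2 Gzmg UMIs (87.2%). For Gzmc the figure was 334 of 967 (34.5%), and 578 of the 967 had 0 Gzmd UMIs. The share of UMIs that free RNA gives to cells was not estimated, so a cell with a UMI is not counted as expressing the gene.

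The levels of Gzme and Gzmg followed the number of Gzmd UMIs. Gzme stood at 6.68 CPM in cells with 0 Gzmd UMIs, 97.5 with 1, 223 with 2, 322 with 3 to 4, 604 with 5 to 9 and 2460 with 10 or more. Over the same classes Gzmg went from 12.7 and 28.5 through 261, 332 and 464 to 4459 CPM. Gzmc had already reached 2742 CPM in cells with 2 Gzmd UMIs and was at 1899, 3061 and 5230 CPM in the next classes. Cells with 1 Gzmd UMI lay between those with 0 and those with 2 for these 3 genes. Gzmf did not follow the order, at 9.74, 112, 5.93, 73.8, 138 and 753 CPM over the classes. After thinning to 2000 UMIs per cell, Gzme was detected in 1.01% of cells with 0 Gzmd UMIs and 90% of those with 10 or more.

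**Figure D2:**
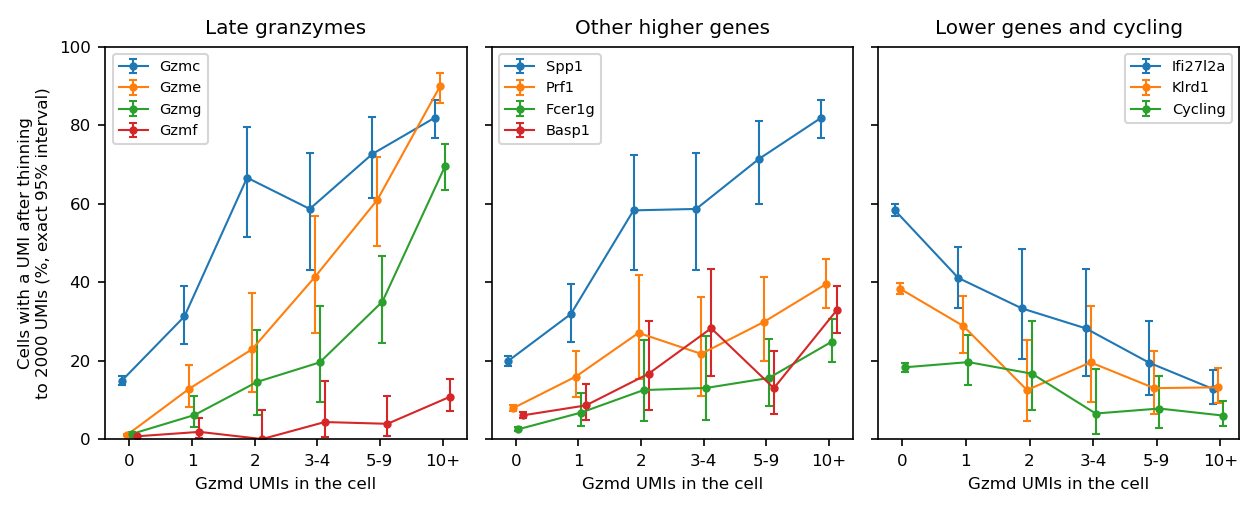
Share of cells (percent, exact 95% interval) with a UMI of each gene after thinning every cell to 2000 UMIs, by the Gzmd UMIs of the cell before thinning, in the day 10 library from 50 IU/mL IL-2v; cycling means a UMI of Mki67 or Top2a. Late granzymes, Spp1, Prf1 and Fcer1g are detected more often toward the right, and Ifi27l2a, from 58.4% to 12.8%, and Klrd1 less often.

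Over all genes, 4753 had a mean of at least 20 CPM over both arms and were compared, and a gene was called at 1.5-fold. Of these, 159 (3.35%) were higher and 500 (10.5%) lower in Gzmd-positive cells, or 13.9% in either direction, with a median difference of -0.12. The counting intervals of the arms were apart for 146 of the 159 and 466 of the 500. With the scaling factors of TMM, which take the bulk of genes as unchanged, the median moved to 0.04. The split was then 296 higher and 293 lower (6.17%) of 4749 compared genes, so no excess of lower genes was seen under that scaling. With totals that leave out ribosomal protein, mitochondrial and granzyme genes, which brought 6480 genes over the filter, it was 283 higher and 703 lower. Gzme and Gzmg reached 20 CPM through the Gzmd-positive cells alone, so the count for their list, 4 of 4 compared genes higher with a median of 5.72, describes the values and supports nothing. The same holds for other lists: of the 659 called genes 213 were under 20 CPM in one arm, so they were compared because of the arm where they are high.

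**Figure D3:**
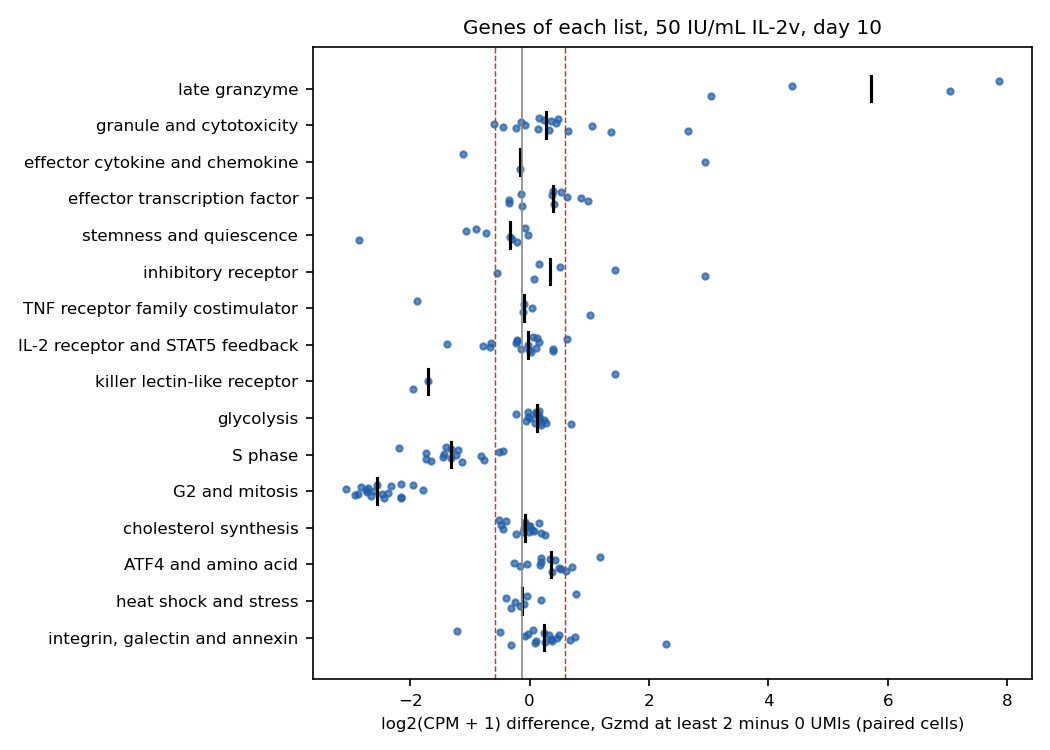
Difference in log2(CPM + 1) between Gzmd-positive and paired Gzmd-negative cells for each compared gene (points) of 16 gene lists, with the list's median (black bar), the median of all compared genes (grey line) and the 1.5-fold limits (dashed). The late granzymes lie far to the right (median 5.72) and the mitosis genes to the left (median -2.56).

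Perforin and part of the wider granule set went with Gzmd. Prf1, the pore-forming protein through which granzymes enter a target, was at 300 CPM in Gzmd-positive and 46.7 CPM in paired negative cells, a difference of 2.66. Gzma, granzyme A, was at 1389 against 541 CPM, a difference of 1.36 (1.25 to 1.47), and Ctsd, the lysosomal protease cathepsin D, at 706 against 340 CPM (1.05). Gzmb, granzyme B, was detected in 99.3% and 99.5% of cells and stood at 4972 against 3179 CPM (0.64, 0.59 to 0.70). In the granule list 4 of 16 compared genes were called higher and 1 lower, Lamp1 at -0.59, with a median of 0.28; Lamp1, a lysosomal membrane protein, was named after its value was seen. With TMM scaling Lamp1 (-0.43) was no longer called, and 6 genes of the list were higher and 0 lower.

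Spp1, which encodes osteopontin, a secreted matrix protein and cytokine, was at 2292 CPM in Gzmd-positive and 300 CPM in paired negative cells, a difference of 2.93 (2.80 to 3.06). Fcer1g, the signalling chain that pairs with Fc and natural cytotoxicity receptors, was at 215 against 32.7 CPM (2.68). Car2, a carbonic anhydrase, was at 100 against 18.6 CPM, Basp1, a membrane-associated protein, at 174 against 40.8 CPM and Sat1, an enzyme of polyamine breakdown, at 84.8 against 25.8 CPM. With the 4 late granzymes and Prf1, these made up the 10 genes with the largest positive difference among genes of at least 50 CPM. Ccl5, a chemokine on the same list as Spp1, went the other way, at 66.5 against 145 CPM (-1.12).

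Surface receptors differed in both directions. Havcr2, the inhibitory receptor TIM-3, was at 77.0 CPM in Gzmd-positive and 9.15 CPM in paired negative cells, a difference of 2.94, and was detected in 38.1% against 6.15% of cells. Cd244a, the receptor 2B4, was at 78.6 against 28.4 CPM (1.44), and of the 6 compared inhibitory receptor genes these 2 passed 1.5-fold, Havcr2 having been compared because of its level in the Gzmd-positive cells. Itga1, the collagen-binding integrin chain CD49a, was at 50.2 against 9.48 CPM (2.29), and Tnfrsf9, the costimulator 4-1BB, at 1045 against 521 CPM. Klrd1 (CD94) was at 80.6 against 264 CPM (-1.70) and Klrk1, the activating receptor NKG2D, at 28.7 against 114 CPM (-1.96), while Klrb1c was higher by 1.44. Tnfsf8, the CD30 ligand, was at 15.3 against 59.5 CPM (-1.89). Of the 31-base words of Klrb1c transcripts 22.1% occur in other genes, so its value is uncertain.

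Several genes of less differentiated T cells were lower in Gzmd-positive cells. Cd27, a costimulatory receptor, was at 30.7 CPM in Gzmd-positive and 65.0 CPM in paired negative cells, a difference of -1.06. Ltb, lymphotoxin beta, differed by -0.90 and Satb1, a chromatin organiser, by -0.73. The stemness and quiescence list had 4 of 9 compared genes lower, 0 higher and a median of -0.32; with TMM scaling 3 were lower, Satb1 being at -0.57. Of effector transcription factors 3 of 11 were higher, with a median of 0.39: Irf8 at 310 against 157 CPM (0.97), Bhlhe40 at 213 against 116 CPM (0.87) and Nfil3 at 156 against 101 CPM (0.62).

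Among genes of the IL-2 receptor pathway and its STAT5 targets, 4 of 18 were lower and 1 higher, with a median of -0.02, which was 0.14 with TMM scaling. The 4 lower genes were Pim2, a survival kinase, at 28.1 against 74.8 CPM (-1.38), the feedback inhibitors Socs2 (-0.78) and Socs1 (-0.66), and Myc (-0.65). With TMM scaling Socs1 (-0.51) and Myc (-0.49) fell under 1.5-fold, which left 2 lower genes. The higher gene, named after its value was seen, was Cdkn1a, the cell cycle inhibitor p21 (0.63). Of 17 glycolysis genes 1 was called, the glucose transporter Slc2a3 (0.70). Of 18 cholesterol synthesis genes 0 passed 1.5-fold in either direction. Of 14 genes of the ATF4 and amino acid list 3 were higher and 0 lower, with a median of 0.35, among them Nupr1, a stress-induced nuclear protein, at 55.1 against 23.9 CPM (1.18), Sesn2 (0.72) and Ddit3 (0.61). With TMM scaling 6 of the 14 were higher. Of 8 heat shock and stress genes 1 was called, the metallothionein Mt1 (0.78). Of 18 integrin, galectin and annexin genes Anxa5 (0.75) and Lgals3 (0.67) were higher and Crip1 lower (-1.21), beside Itga1, which passed the filter because of the Gzmd-positive cells. With TMM scaling 5 of these 18 were higher and 1 lower. The shares without TMM scaling stand beside the background of 3.35% higher and 10.5% lower. Those with TMM scaling stand beside the TMM split of all genes given above, where 6.17% of 4749 genes were lower.

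A UMI of a cell division gene was detected in fewer Gzmd-positive cells than negative cells of equal depth. A UMI of Mki67 or Top2a, genes of dividing cells, was found in 68 of 423 Gzmd-positive cells (16.1%, 12.7 to 19.9) and in 164 of 423 paired negative cells (38.8%, 34.1 to 43.6). After thinning to 2000 UMIs the shares were 7.60% and 28.0%. In 3 bands of UMIs per cell, from the lowest to the highest, the shares were 9.22%, 14.9% and 24.1% in Gzmd-positive cells. In all negative cells of the bands, paired or not, they were 18.6%, 36.4% and 54.5%, so the gap held in each band. It was widest in the 251 cells with 10 or more Gzmd UMIs, at 12.7% (8.89 to 17.5) against 41.8% of their partners. Cells with 3 to 4 Gzmd UMIs stood at 13.0% (4.94 to 26.3) against 30.4%. With 2 Gzmd UMIs the share was 22.9% (12.0 to 37.3) against 31.25%, and with 5 to 9 it was 24.4% (15.3 to 35.4) against 30.8%, so in these classes the share of the partners lay within the counting interval. All 19 compared genes of the G2 and mitosis list were lower, with a median of -2.56, and 14 of 16 S phase genes, with a median of -1.31. Without matching on UMIs the mitosis median was -1.80. Of these, 15 mitosis and 10 S phase genes reached the filter because of the negative cells, so the counts describe the values and add no support to the shares above. Cenpf, a kinetochore protein, was at 13.7 against 124 CPM (-3.08), Birc5 (survivin) at 18.9 against 130 CPM (-2.72), Ube2c, a ubiquitin-conjugating enzyme of mitotic exit, at 36.2 against 226 CPM (-2.61) and Stmn1, a microtubule regulator, at 57.1 against 271 CPM (-2.23). The histone genes Hist1h1b (-2.68), Hist1h2ae (-2.43) and Hist1h2ap (-2.24), with Top2a (-2.43) and the condensin gene Smc2 (-2.33), were also among the 10 lowest. Hist1h2ap and Hist1h2ae share 93.4% and 58.3% of their words with other genes, mainly other histones, and their values are uncertain, as is that of Stmn1 (26.2%). Ube2c overlaps Tnnc2 on the opposite strand over 22.8% of its exonic bases, and Ctsd and Spp1 overlap other annotated genes on their own strand over 34.4% and 18.8%.

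The comparison was repeated in cells with no UMI of Mki67 or Top2a, which left 350 pairs. This setting is called without cycling cells, though a dividing cell in which no such UMI was detected stays in it. There 4605 genes were compared, of which 145 were higher and 295 lower. Of 7 S phase genes compared there 4 were still lower, with a median of -0.82. Mcm3, 1 of the 4, reached the filter because of the negative cells, at 11.9 against 32.0 CPM. The late granzyme median was 5.76, Spp1 differed by 2.61, Prf1 by 2.52, Havcr2 by 2.27, Fcer1g by 2.35 and Itga1 by 2.81, so these genes remained well past 1.5-fold without cycling cells, though Havcr2 had a smaller fold. Several smaller differences fell under 1.5-fold there: Gzmb (0.40), Bhlhe40 (0.58), Slc2a3 (0.53), Mt1 (0.54), Anxa5 (0.49) and Lgals3 (0.56). Of the 14 ATF4 and amino acid genes 6 were then called higher, beside 145 of all 4605 genes. Klrd1 (-1.75), Klrk1 (-1.81) and Tnfsf8 (-2.04) were lower there too. Cenpf, at 1.64 against 1.23 CPM, and Hist1h2ae, at 5.32 against 3.70 CPM, were too low there to give a direction. Among Gzmd-positive cells, the 68 with a cycling UMI had 1424 CPM of Gzmg, 1064 CPM of Gzme and 2838 CPM of Gzmc, against 3236, 1824 and 4574 CPM in the other 355. Gzma, at 1366 and 1395 CPM, was alike in both.

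Ifi27l2a, an interferon-inducible gene, was the single gene of the 10 lowest genes outside cell division. It stood at 164 CPM in Gzmd-positive and 825 CPM in paired negative cells, a difference of -2.32 (-2.51 to -2.14), and was detected in 30.97% against 68.8% of cells. By Gzmd class it was at 987, 616, 273, 204.7, 194 and 130 CPM from 0 to 10 or more UMIs. Against partners of equal depth the differences were -0.74, -1.57, -2.31, -2.10 and -2.63 from 1 to 10 or more UMIs. The counting intervals of the classes from 2 to 9 UMIs overlapped, so their order is not settled. Without cycling cells the difference was -2.16.

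The same rule was applied to the day 10 library from 50 IU/mL IL-2, whose cells the rule had not used. It gave 1534 pairs, fewer than the 2291 Gzmd-positive cells of that library. The paired Gzmd-positive cells had medians of 4945.5 UMIs and 17 Gzmd UMIs, against 6121 and 22 in all 2291. Of 4777 compared genes 123 (2.57%) were higher and 203 (4.25%) lower, or 6.82% in either direction, with a median of -0.06. Of the 159 genes higher in IL-2v 73 were also called higher in IL-2 (45.9% of the 159 and 59.3% of the 123), and of the 500 lower genes 116 were also called lower (23.2% of the 500 and 57.1% of the 203). Of the lower genes 120, and of the higher genes 6, fell under the filter in the IL-2 library and could not be called there. Among the 4458 genes compared in both libraries, 145 of 153 higher genes (94.8%) had a positive difference in IL-2, where 40.2% of the 4458 did, and 361 of 380 lower genes (95%) a negative one, where 59.8% did. Across the 4458 genes Pearson's r was 0.755, a description over genes, which are not replicates. The libraries differ in cytokine, and each has its own Gzmd-negative cells.

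Gzmg was at 9110 against 255.6 CPM in the IL-2 library (5.15), Gzme at 2934 against 58.1 CPM (5.63), Gzmf at 856 against 23.2 CPM (5.14) and Gzmc at 1910 against 358 CPM (2.41). Spp1 (1.98), Prf1 (2.29), Havcr2 (1.98) and Fcer1g (2.12) were higher in Gzmd-positive cells there as well, and Ifi27l2a (-2.50), Tnfsf8 (-2.63) and Klrd1 (-1.61) lower. Gzma and Gzmb were not called in that library: Gzma was at 5661 against 4438 CPM (0.35) and Gzmb at 7115 against 7957 CPM (-0.16). A Mki67 or Top2a UMI was found in 9.06% of Gzmd-positive against 16.5% of negative cells. These cells were shallower than the IL-2v pairs, at medians of 4945.5 and 4990.5 UMIs, so the unthinned shares are not at equal depth. In IL-2v the shares rose with depth. After thinning to 2000 UMIs the shares were 5.03% (3.98 to 6.26) against 11.4% (9.86 to 13.2) in IL-2 and 7.60% (5.26 to 10.6) against 28.0% (23.8 to 32.6) in IL-2v, a comparison chosen after seeing the data. In the lowest band of IL-2v cells, up to 5937 UMIs, the unthinned shares were 9.22% of 141 Gzmd-positive and 18.6% of all 2986 negative cells, which were not paired. In the IL-2 library the mitosis list had a median of -0.90 over 5 compared genes. Whether these differences between the 2 libraries exceed the spread between cultures was not tested, since each condition had 1 library. Dcxr passed 1.5-fold in opposite directions, at 0.63 in IL-2v, with a range of -0.07 to 1.33 that includes 0, and -0.83 in IL-2; it was picked out after its values were seen.

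**Figure D4:**
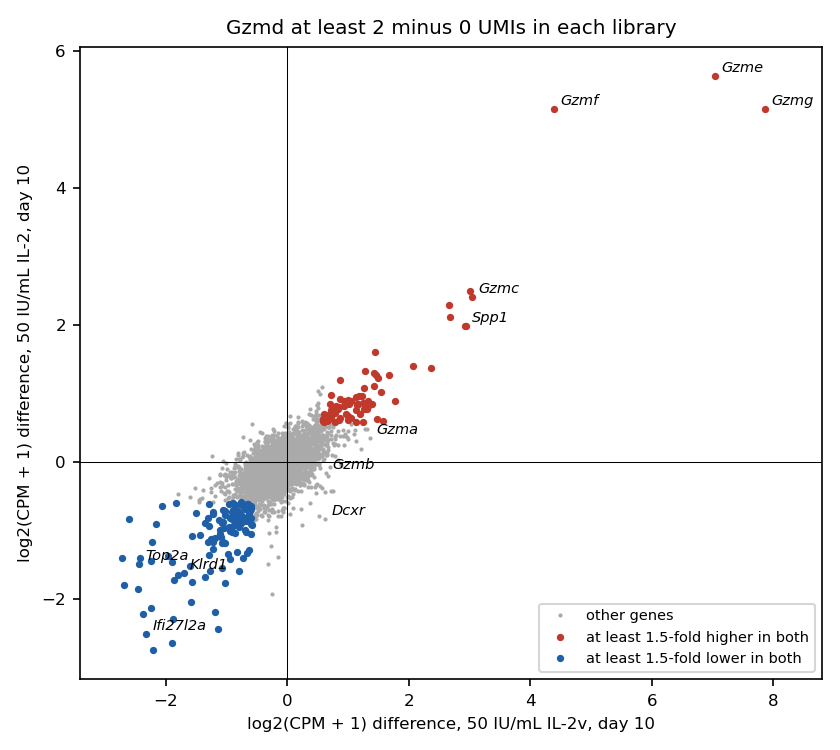
Difference in log2(CPM + 1) between Gzmd-positive and paired Gzmd-negative cells in the day 10 libraries from 50 IU/mL IL-2v (x axis) and 50 IU/mL IL-2 (y axis), 1 point for each of 4458 genes. The 73 genes called higher in both (red) include the late granzymes at the upper right, the 116 called lower in both (blue) include Ifi27l2a, and Gzma and Gzmb lie near 0 on the y axis.

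The genes around Gzmd were then read by position, over 300 kb to each side, a window chosen after values in it had been seen. It holds 15 other genes of the table, of which 7 were compared. Proteases of the same family that are known from myeloid cells, Ctsg (cathepsin G) and Mcpt8, lie next to Gzme on the side away from Gzmb. Ctsg, at chr14:56099881-56102574, had 66 UMIs in 31 Gzmd-positive cells (7.33%, 5.03 to 10.2) and 0 UMIs in the 423 paired negative cells, where a floor of 3 cells allows a share of up to 0.709%. Mcpt8, at chr14:56082166-56085273, had 34 UMIs in 30 Gzmd-positive cells (7.09%, 4.84 to 9.97) and 0 in paired negative cells. Among all 4501 Gzmd-negative cells of the library 2 had a Ctsg UMI and 0 had an Mcpt8 UMI. Against a floor of 3 UMIs over the arm, Ctsg was at least 22.0-fold and Mcpt8 at least 11.3-fold higher. In the IL-2 library Ctsg had 201 against 1 UMIs and Mcpt8 159 against 6.

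Neither Ctsg nor Mcpt8 shared a 31-base word of its last 500 bases with another gene. Farther out on that side, Cma1 had 7 against 3 UMIs, Khnyn, 231 kb from Gzmd, was at 33.3 against 21.2 CPM (0.62) and its neighbour Sdr39u1 differed by -0.43. On the other side Gzmb marked the end of the granzyme genes with 0.64. Gm4022, an antisense gene that overlaps 16.4% of the exonic bases of Gzmf on the opposite strand, had 3 against 0 UMIs. Whether the counting used strand is not given in the sources used here.

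**Figure D5:**
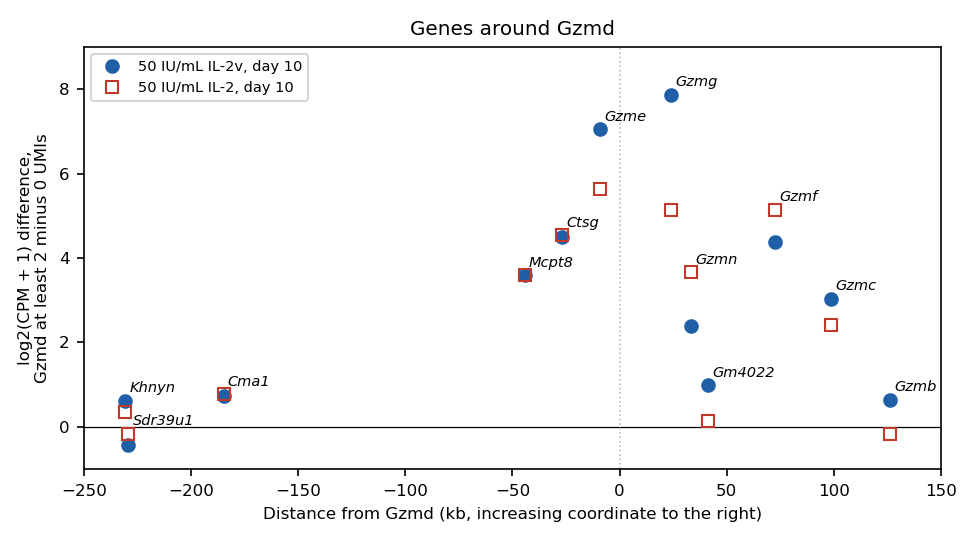
Difference in log2(CPM + 1) between Gzmd-positive and paired Gzmd-negative cells for genes near Gzmd with at least 3 UMIs over both arms, by distance from Gzmd in kb, in the day 10 libraries from IL-2v (filled) and IL-2 (open) at 50 IU/mL. The late granzymes, Ctsg and Mcpt8 lie above 2, and the other genes below 1; the heights of Mcpt8, Ctsg, Gzmn and Gm4022, with 0 UMIs in the paired negative cells of the IL-2v library, depend on the added 1 CPM.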

How the data were processed

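The deposited tables, 1 per library, hold raw UMI counts per cell for 17516 gene symbols, per the file headers and values; 21 libraries with 106456 kept cells were read. Per the submitters' processing notes the tools were Cell Ranger (no version) and Seurat 4.0.1 and 3.0.2 with mm10, and their parameters are not given in the sources used here. Cells below 1000 UMIs or 500 genes, or above 10% mitochondrial UMIs, were removed (2 cells). Pairs were made 1:1 by nearest UMI total without Gzmd, within 5%, from the deepest cell down. UMIs were summed per arm and scaled to CPM without Gzmd, a pseudocount of 1 CPM was added, and genes averaging 20 CPM or more over both arms were compared and called at 1.5-fold. Intervals are exact Poisson for CPM and Clopper-Pearson for shares, at 95%. Cells are not replicates and each condition had 1 library, so no test was run.

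The named genes were the 10 highest and 10 lowest among genes of at least 50 CPM, all late granzymes, up to 4 genes with the largest difference in each of 16 lists, and genes of 7 cell type marker lists. The members and lists were chosen with earlier results of these data known. Erythroid markers present in the table summed to 0 CPM in Gzmd-positive and 0.654 CPM in paired negative cells. Gene positions and transcripts were from GENCODE vM21, which held 98.4% of the symbols, and upstream sequences from RefSeq. The scripts were tested on simulated data. Tools were Python 3.11.15, numpy 2.4.6, scipy 1.17.1, pandas 2.3.3, Biopython 1.88 and, for TMM factors, edgeR 4.0.16. Alternatives to matching, the Gzmd limit, scaling, pseudocount, filters and cells were run. Some genes of the lists are not reported here by name.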

Additional observations from a re-analysis of the deposited data

Results flagged for a closer look

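Gzmd-positive cells also appeared in 2 libraries outside the comparisons, with the whole 95% interval of the share above the limit that 0 cells allow in their control. In the day 10 library from 5 IU/mL IL-2 they were 0.376% of cells (24 cells, 95% interval 0.241 to 0.559), against a limit of 0.0628% in naive cells. In the day 5 library from 50 IU/mL IL-2 they were 0.215% (7 cells, 0.0866 to 0.443), against a limit of 0.0491% in day 5 cells without cytokine. In the day 5 library from 50 IU/mL IL-2v, 3 cells made 0.0591%, with an interval of 0.0122 to 0.173 that reaches below the limit. All were too few for pairing, which needed 50 pairs.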

How the results depend on the processing

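No paired analysis was possible because each condition had 1 library, so no replicate numbers link libraries; the pairs above match cells within a library. The counts of 159 higher and 500 lower genes depended on several choices. They were 103 and 315 with at least 1 Gzmd UMI, 296 and 293 with TMM scaling, 1069 and 2262 with no filter on low genes, 79 and 165 with a mean of at least 50 CPM, and 56 and 165 at 2-fold. Only the lower count moved by over 1.5 times when pairs were matched on cycling class (328), when cells with a Mki67 or Top2a UMI were left out (295) and with a pseudocount of 10 CPM (322), and only the higher count when totals left out ribosomal protein, mitochondrial and granzyme genes (283, among 6480 compared genes in place of 4753). Without cycling cells Cenpf (0.24), Hist1h2ae (0.43) and Hist1h2ap (0.15) had a positive difference. That setting removes cells with a detected Mki67 or Top2a UMI, which need not be every dividing cell. Cenpf, at 1.64 against 1.23 CPM, and Hist1h2ae were too low there to give a direction.

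The share of cycling cells stayed below that of the negative cells under each alternative that left it free. Matching on cycling class, or leaving out cells with a Mki67 or Top2a UMI, fixes the shares and says nothing about them. For some settings the share of only 1 arm is given below. It was 7.60% against 28.0% after thinning and 50.6% against 66.0% with 3 UMIs of the cell cycle lists as the limit. With at least 1 Gzmd UMI it was 20.2% in Gzmd-positive cells. Without matching it was 16.1% in Gzmd-positive and 25.6% in all Gzmd-negative cells. In negative cells it was 44.5% at no more than 5% mitochondrial UMIs, and 33.7% without cells over 2 times the median UMIs. The share of Gzmd-positive cells was 6.24% after thinning, 7.39% without cells over 2 times the median, 11.6% at 1 and 6.46% at 5 UMIs. Without cycling cells, an alternative chosen after seeing the data, the overlap with the IL-2 library was 69 higher and 96 lower genes. The 69 were 47.6% of 145 higher genes in IL-2v and 52.7% of 131 in IL-2. The 96 were 32.5% of 295 lower genes in IL-2v and 50% of 192 in IL-2. Without matching, 18 of 85 named genes moved by over 1.5 times in fold. The differences of 5 were larger, among them Fcer1g (3.32) and Gzma (1.97), and those of 13 cell division genes were smaller, between -2.44 and -1.09, among them Cenpf (-2.44), Birc5 (-1.96), Hist1h1b (-1.94), Ube2c (-1.92), Top2a (-1.80) and Hist1h2ae (-1.54). Slc2a3 (0.47) fell under 1.5-fold. With a pseudocount of 10 CPM, Gzmg (7.09), Gzme (6.28), Havcr2 (2.18), Itga1 (1.63) and Cenpf (-2.49) moved by over 1.5 times, and Ddit3 (0.58), Nfil3 (0.58), Sesn2 (0.54) and Myc (-0.56) fell under 1.5-fold. Of 85 named genes, 80 kept their sign under TMM scaling. With 3065909 UMIs in the Gzmd-positive arm, smaller differences of low genes were not detectable at this depth.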

Other observations

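Interferon-stimulated genes were lower in Gzmd-positive cells beyond Ifi27l2a. A list of 51 such genes was drawn up after Ifi27l2a and a few others had been seen, so its count is a description. Of 34 compared genes, Ifi27l2a among them, 24 were called lower and 0 higher, with a median of -0.84. Over all genes 10.5% were called lower, with a median of -0.12. Rtp4, Ifi203 and Ifi208 (19.6 CPM) were under 20 CPM in Gzmd-positive cells, so they were compared because of the negative cells and add no support. Igtp, an interferon-induced GTPase, was at 32.0 CPM in Gzmd-positive and 98.0 CPM in paired negative cells (-1.59), Ifi203 at 14.7 against 56.5 CPM (-1.88), Rtp4 at 10.1 against 40.5 CPM (-1.90) and Isg15, a ubiquitin-like protein, at 68.2 against 148 CPM (-1.11). The exceptions by sign were Isg20 (0.18), Gbp4 (0.01) and Ifitm3 (0.24). Without cycling cells, 26 of 34 were lower, with a median of -0.87, beside 6.41% of all genes. With TMM scaling 21 of 34 were lower, with a median of -0.68, beside 6.17% of all genes and a median of 0.04.

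In the day 10 library from 50 IU/mL IL-2, 34 genes of that list were compared as well, but Rtp4 and Ifi208 were not among them. All 34 had a negative difference, 23 were called lower and the median was -1.01, beside 4.25% of all genes called lower. Among those called, Ifi203 (6.27 CPM), Irgm1 (11.8), Irf7 (16.2), Ifi47 (19.4), Trim30a (19.6) and Ifi206 (19.8) were under 20 CPM in Gzmd-positive cells. They were compared because of the negative cells and add no support. Of the 24 genes lower in IL-2v, 20 were also called lower in IL-2, while Rtp4 (-2.15) and Ifi208 (-1.19) fell under the filter there. Igtp stood there at 26.3 against 111 CPM. Ifitm3 was at 382 against 324 CPM in IL-2v and at 421 against 795 CPM in IL-2.

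A few single genes outside the naming rule, picked after their values were seen, stood close to the leading ones. Sema6d, a transmembrane semaphorin, was at 51.5 against 5.55 CPM in IL-2v (3.00) and 42.2 against 6.67 CPM in IL-2 (2.49). Ero1l, an oxidase of protein folding in the endoplasmic reticulum, was at 403 against 142 CPM. Il18r1, a chain of the IL-18 receptor, was at 8.15 against 42.5 CPM (-2.25) and Tespa1, a T cell receptor signalling protein, at 12.7 against 68.6 CPM (-2.34), with -2.12 and -2.36 in the IL-2 library. Tespa1, at a mean of 18.2 CPM, fell under the filter in the IL-2 library. Sema6d, Il18r1 and Tespa1 were under 20 CPM in 1 arm, so they were compared because of the arm where they are high and add no support.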
